A study of Mus musculus with 12 samples.

Results

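Meiotic prophase genes encode proteins that pair, break, repair and exchange homologous chromosomes, and 35 of them were followed through fetal and newborn male germ cells that had not entered meiosis. They were chosen by name, as Ensembl identifiers whose symbol is one of 35 listed genes, and are 35 of the 55487 genes in the deposited table. All 35 were found by symbol, and all 35 passed the filter on low counts, a minimum of 10 normalized counts in 3 or more libraries. They fell into 8 roles: 7 genes of the synaptonemal complex, 4 of meiotic cohesin, 3 of the HORMA-domain axis, 5 of double-strand break formation, 5 of strand invasion, 6 of crossover formation, 3 of telomere attachment and 2 regulators of RNA.

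The cells were gonocytes, the male germ line before it gives rise to spermatogonia, taken from Mvh-Venus transgenic mice, in which a fluorescent protein marks the germ line. There were 12 libraries, 3 each at embryonic days E13.5 and E16.5, at the day of birth (P0) and at postnatal day 3 (P3). Titles and source names call all 12 wild type, but the genotype tag reads Morc1 (+/-) at E13.5 and P0 and Morc1 (-/-) at E16.5 and P3. Libraries were therefore grouped by stage, and between neighbouring stages the tagged genotype cannot be told apart from stage. Morc1 is a germ cell gene of chromatin silencing. Its normalized counts were 1621 to 1830.3 (E13.5), 28328 to 32916 (E16.5), 7279.9 to 7708 (P0) and 10584 to 11129 (P3), so the stages tagged as mutant held more Morc1 RNA than E13.5, and the labels do not say which bases that allele lacks. Nothing in the labels says whether the 3 libraries of a stage came from separate animals, so p-values measure the spread between these libraries, which may be technical.

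In meiotic prophase, cohesin and HORMA-domain proteins build an axis along each chromosome, SPO11 cuts the DNA, and the recombinase DMC1 helps carry the cut ends into the homologous chromosome. The synaptonemal complex then zips the paired axes together, while crossover proteins choose which repair events become exchanges. Germ cells of a fetal ovary start this program before birth. Those of a testis stop dividing in fetal life, resume around birth and enter meiosis only later, as spermatocytes.

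Values are given on 2 scales. A normalized count is the read count of a gene divided by the authors' size factor for the library, and is used to compare stages. TPM, a measure of transcripts, divides by exon length and sums to the same total in every library, and is used to compare genes. Libraries held 40946616 to 51533747 reads on genes. Scaling mattered, because the size factors of the table give P0 libraries lower values than an equal-total scaling does. Over all genes the median log2 change at P0 against E16.5 was -0.01 with the authors' factors and 0.68 with equal totals, and at P3 against P0 it was 0.05 and -0.86. A change is therefore said to hold under all 5 scalings only where the authors' factors, TMM, median-of-ratios, poscounts and equal totals all called it in the same direction.

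The cells matched their label by germ cell markers, whose summed level over 8 genes was 5111 to 5237 TPM (E13.5), 9088 to 9724 (E16.5), 7365 to 7712 (P0) and 6120 to 6235 (P3). The sum and the single genes differed, since 7 of the 8 were lower and 1 higher at P0 against E13.5 (median log2 fold change -1.85). Under all 5 scalings 6 were lower and 1 higher, beside 20.5% and 45.7% of all genes. Markers of other testis cells differed by type. The 12 Sertoli cell markers summed to 1306 to 2414 TPM at P0, against 162 to 224 at E13.5, 266 to 580.0 at E16.5 and 309 to 419 at P3, with all 12 above 3 reads in every P0 library. The 6 peritubular markers summed to 290.1 to 306 TPM at P0 and to at most 69.2 elsewhere, and the 7 mast cell markers to 163 to 324 at P0, at most 17.8 elsewhere, with all 7 at 0 at E13.5. The 7 Leydig cell markers reached 346 TPM at P0 and 247 at E16.5, with Insl3 and Lhcgr at 0 at P3. The 5 endothelial markers instead had their highest sum at E13.5, at 42.9 to 50.5 TPM against 29.7 to 33.9 at P0. By gene, however, 4 were higher and 1 lower at P0 than at E13.5, under all 5 scalings (45.7% and 20.5% of all genes). Emcn was at 0 at E13.5. The 7 macrophage markers had their highest sum at E16.5, at 66.5 to 75.6 TPM against 14.2 to 34.5 at P0. Of 6 tested, 2 were higher and 1 lower at P0 against E16.5 (27.6% and 33.4% of all genes). The part of these other cells in the values below was not tested, and in bulk libraries fewer germ cells and less RNA per cell cannot be told apart.

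Most of the 35 genes had RNA well before meiosis. At E13.5, 29 of 35 reached at least 1 TPM in all 3 libraries, beside 49.1% of all protein-coding genes. All 35 did so at E16.5 (60.7% of protein-coding genes), at P0 (70.4%) and at P3 (55.6%). The 6 genes short of it at E13.5 were Rad21l, Mei1, Meiob, Spata22, Rnf212 and Prdm9. Of these, Prdm9 and Rnf212 missed it through 1 library each, at 0.988 and 0.648 TPM. Across all 12 libraries 29 genes stayed at 1 TPM or more (46.4% of protein-coding genes), and 4, namely Syce1, Stag3, Hormad1 and Mnd1, stayed at 100 TPM or more (5.25%).

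The median level of the 35 genes was 7.08 TPM (E13.5), 12.9 (E16.5), 25.4 (P0) and 21.6 (P3), and the median protein-coding gene was at 1.06, 3.45, 6.78 and 2.33 TPM. Together they held 2016 ± 86.1 TPM (E13.5), 2260.5 ± 71.1 (E16.5), 2500.1 ± 62.3 (P0) and 3171 ± 118 (P3) (SD, n = 3). The set therefore lay above the typical gene at every stage, and its summed level was highest at P3, where 12 of its genes reached 100 TPM (9.41% of protein-coding genes), against 8 at E13.5 (8.96%), 7 at E16.5 (8.65%) and 7 at P0 (9.38%).

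**Figure D1:**
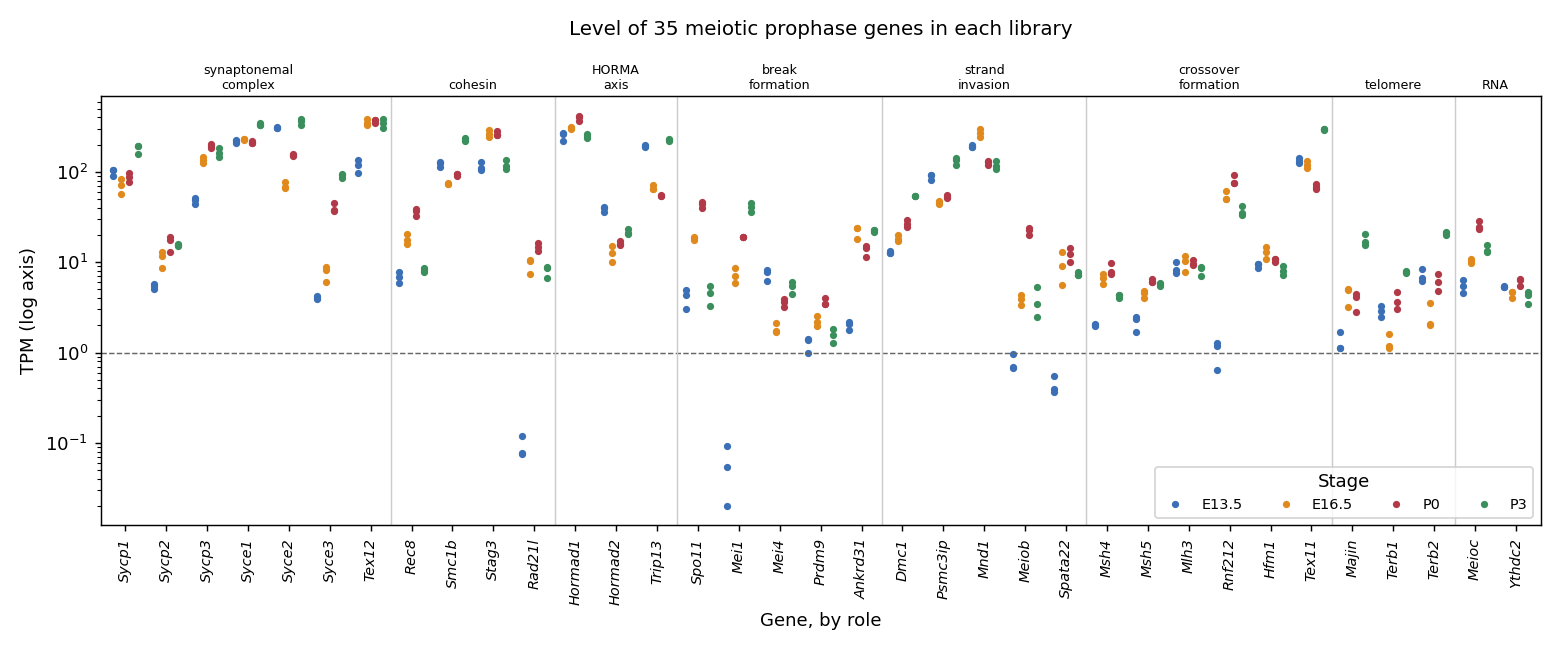
Level of each of the 35 genes in each of the 12 libraries, in TPM on a log axis, with genes ordered by role and points coloured by stage. Values under 0.02 TPM are drawn at 0.02. The dashed line marks 1 TPM, and most points lie above it, while Rad21l and Mei1 at E13.5 lie far below.

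**Figure D2:**
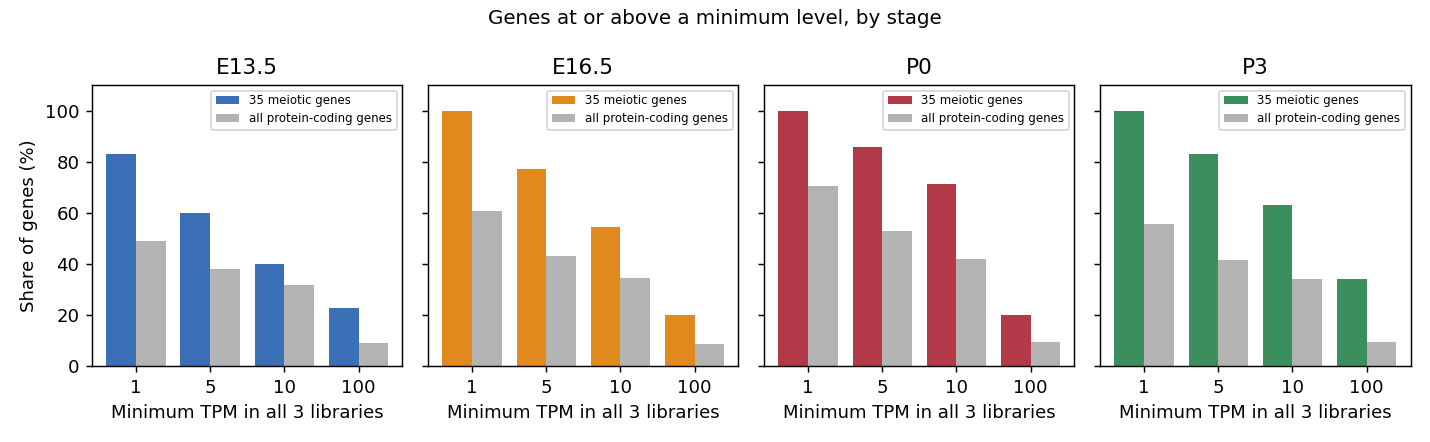
Share of genes, in percent, that reached 1, 5, 10 or 100 TPM in all 3 libraries of a stage. Coloured bars are the 35 meiotic genes and grey bars all 21974 protein-coding genes, and at 1 TPM the meiotic bars stand at 82.9% at E13.5 and 100% at the later stages.

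The sequences upstream of 6 genes are printed to set genes under or near 1 TPM at E13.5 that were higher at every later stage beside genes with much RNA at all stages. RefSeq (GRCm38.p6) gave a promoter for 29 of the 35 genes, none being found for Majin, Meiob, Spo11, Terb2, Tex11 and Ythdc2. Each window is the 250 bases before the annotated start, 5′ to 3′ on the strand of the gene, with matches to the 4 motifs below in capitals. Rad21l (chr2:151668534-151668783, minus strand), Mei1 (chr15:82082226-82082475, plus strand) and Rnf212 (chr5:108775028-108775277, minus strand) had at most 3, 7 and 33 reads in an E13.5 library. The RefSeq start of Mei1 lies inside the longer GENCODE gene model.

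Rad21l: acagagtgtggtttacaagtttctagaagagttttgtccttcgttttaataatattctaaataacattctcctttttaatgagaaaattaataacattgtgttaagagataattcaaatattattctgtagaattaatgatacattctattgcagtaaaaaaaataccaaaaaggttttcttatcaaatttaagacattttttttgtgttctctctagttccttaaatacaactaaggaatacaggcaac
Mei1: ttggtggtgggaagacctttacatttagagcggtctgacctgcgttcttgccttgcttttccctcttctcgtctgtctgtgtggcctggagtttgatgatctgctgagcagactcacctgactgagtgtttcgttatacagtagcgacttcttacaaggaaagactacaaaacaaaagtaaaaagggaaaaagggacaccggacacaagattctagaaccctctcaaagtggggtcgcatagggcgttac
Rnf212: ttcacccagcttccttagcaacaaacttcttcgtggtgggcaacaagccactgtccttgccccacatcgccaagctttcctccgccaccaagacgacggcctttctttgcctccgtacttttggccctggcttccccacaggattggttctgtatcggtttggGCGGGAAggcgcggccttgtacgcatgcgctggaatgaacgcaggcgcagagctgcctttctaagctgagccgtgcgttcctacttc

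Hormad1 (chr3:95559427-95559676, plus strand), Tex12 (chr9:50561269-50561518, minus strand) and Smc1b (chr15:85131958-85132207, minus strand) had high levels at all 4 stages.

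Hormad1: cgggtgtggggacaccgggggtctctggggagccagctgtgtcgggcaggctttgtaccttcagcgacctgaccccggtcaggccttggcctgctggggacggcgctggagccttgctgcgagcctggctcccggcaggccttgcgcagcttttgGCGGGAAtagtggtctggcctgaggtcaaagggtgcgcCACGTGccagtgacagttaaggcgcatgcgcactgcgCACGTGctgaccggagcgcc
Tex12: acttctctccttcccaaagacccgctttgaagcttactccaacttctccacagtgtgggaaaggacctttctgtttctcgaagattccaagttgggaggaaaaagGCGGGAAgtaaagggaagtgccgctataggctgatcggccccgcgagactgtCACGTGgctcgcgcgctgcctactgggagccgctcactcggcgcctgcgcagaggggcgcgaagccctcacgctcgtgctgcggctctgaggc
Smc1b: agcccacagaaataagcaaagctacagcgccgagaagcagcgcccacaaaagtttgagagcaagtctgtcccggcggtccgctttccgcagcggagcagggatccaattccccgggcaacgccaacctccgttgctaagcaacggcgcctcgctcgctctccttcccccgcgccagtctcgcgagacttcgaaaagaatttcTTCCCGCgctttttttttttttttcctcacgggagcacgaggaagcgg

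The windows differed in CpG, the base pair whose methylation is linked to silencing of germ line genes. Rad21l held 1 CpG, Mei1 8 and Rnf212 16, while Hormad1 held 19, Tex12 20 and Smc1b 25. These windows were picked after the values were seen, and not all 29 genes kept their order. Spata22, at a mean of 0.436 TPM at E13.5, held 22 CpG, and Mnd1, at 190 TPM, held 8. Among the 29 matched genes, the 8 with a mean of at least 100 TPM at E13.5 held a median of 22 CpG (8 to 27), and the other 21 held 12 (1 to 34), so the ranges overlapped. Spearman's rho between CpG number and E13.5 TPM was 0.424 over the 29 genes and 0.632 over 16492 protein-coding genes. It is given as a description, since these points come from the same libraries and share base composition.

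4 motifs were searched on both strands. CACGTG, the E-box bound by MGA and MAX, was found for 6 of 29 genes (20.7%), against 6.86% of 27025 genes with a RefSeq promoter. GCGGGAA, a core bound by E2F factors, was found for 9 of 29 (31.0%), against 4.38%. CNCCTCAG, the motif of STRA8 and MEIOSIN, was found for 5 (17.2% against 7.39%), and the T-box site TCACACCT for 1 (3.45% against 1.3%). CACGTG and GCGGGAA contain a CpG themselves, and the member windows had a median of 13 CpG against 6 for all promoters. A match is only a match of letters. Hormad1, Sycp3, Tex12 and 1 of the Syce2 windows held both CACGTG and GCGGGAA.

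Stage changes were tested with limma on log2(normalized count + 1), a scale that understates the change of low genes, with Benjamini-Hochberg adjustment over 22384 genes. Of the 35 genes, 34 differed among the stages, beside 95.2% of all tested genes, and Prdm9, the histone methyltransferase that places meiotic breaks, was the exception (adjusted p 0.36). That rests on the authors' factors, since with equal totals Prdm9 was called in all 3 consecutive steps, at 0.76, 0.69 and -1.16 on the log2 scale (limma adjusted p 0.00388, 0.00945 and 0.000129). At E16.5 against E13.5, 16 genes were higher and 14 lower, 30 of 35 beside 80.1% of all genes (45.5% higher, 34.6% lower). At P0 against E16.5, 8 were higher and 16 lower, 24 of 35 beside 61.0% (27.6% higher, 33.4% lower). At P3 against P0, 25 were higher and 4 lower, 29 of 35 beside 76.5% (40.1% higher, 36.4% lower).

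The shares called lay near those of all genes in these 3 comparisons, and the directions differed mainly at P3. The median log2 fold change of the 35 genes was 0.27 at E16.5 against E13.5, where all genes stood at 0.31, and -0.21 at P0 against E16.5, where all genes stood at -0.01. At P3 against P0 the 35 genes had a median of 0.83 and all genes 0.05, and with equal totals these were -0.01 and -0.86. Under all 5 scalings 16 genes were higher at P3 (45.7% of the 35, beside 20.6% of all genes) and 4 lower (36.1% of all genes). At E16.5 against E13.5, 16 were higher and 11 lower under all 5 scalings (45.7% and 24.7% of all genes), and at P0 against E16.5 8 and 6 (26.9% and 15.5%). At P3 against P0 the median of the 35 genes thus lay above that of all genes under both scalings, while its own sign differed between them. Germ cell markers moved the same way in that step, with 7 of 8 higher and 1 lower (40.1% and 36.4% of all genes). Of the rises, 6 held under all 5 scalings (20.6% of all genes), and the median log2 fold change was 1.20. In the step before, P0 against E16.5, 7 of 8 had been lower and 1 higher (33.4% and 27.6% of all genes, median -1.89). Of the tested somatic markers, 10 of 11 Sertoli and 5 of 5 peritubular genes were lower at P3 than at P0, beside 36.4% of all genes. The part of these markers in the result was not tested.

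At P0 against E13.5, 14 genes were higher and 16 lower (30 of 35, beside 86.1% of all genes, 45.7% higher and 40.5% lower), with 14 and 8 under all 5 scalings (45.7% and 20.5% of all genes). At P3 against E16.5, 19 were higher and 6 lower (25, beside 69.5%, 34.2% higher and 35.2% lower), and these 25 calls held under all 5 scalings (29.6% and 35.4%). At P3 against E13.5, 22 were higher and 8 lower (30, beside 70.4%, 39.2% higher and 31.2% lower), with 22 and 4 under all 5 scalings (39.3% and 21.9%). P0 against E13.5 and P3 against E16.5 each stay within 1 genotype tag.

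Many changes were small. Called changes of at least 2-fold were met by 10 genes upward and 9 downward at E16.5 against E13.5 (37.5% and 22.1% of all genes), by 2 and 4 at P0 against E16.5 (19.0% and 15.0%) and by 16 and 3 at P3 against P0 (24.7% and 29.9%). The longer steps gave 9 and 14 at P0 against E13.5 (40.8% and 29.7%), 14 and 1 at P3 against E16.5 (20.3% and 25.0%) and 16 and 2 at P3 against E13.5 (30.3% and 15.1%). At P3, 2-fold falls were thus fewer among the 35 than among all genes against each of the 3 earlier stages.

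**Figure D3:**
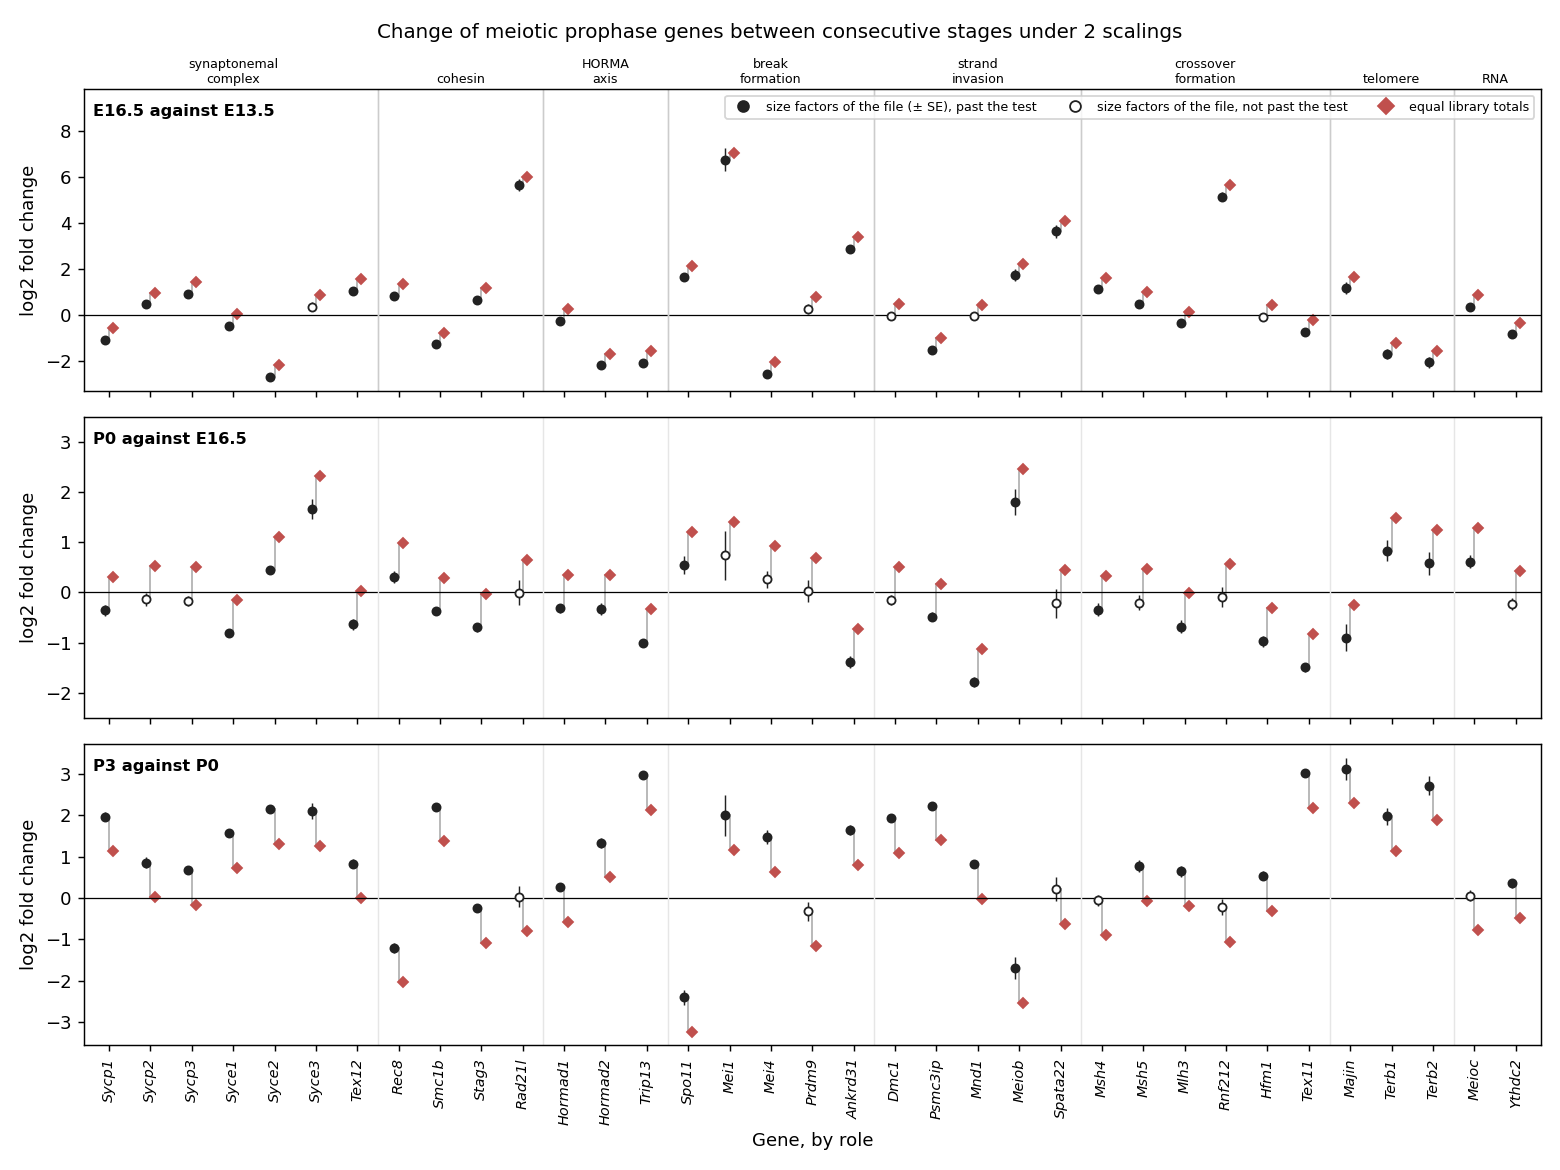
Log2 fold change of the 35 genes at E16.5 against E13.5 (top), P0 against E16.5 (middle) and P3 against P0 (bottom). Circles use the authors' size factors with SE bars, filled where the adjusted p was under 0.05 and open where it was not, and red diamonds use equal library totals, which sit higher than the circles in the upper panels and lower than them in the bottom panel.

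The synaptonemal complex has lateral elements (SYCP2, SYCP3), transverse filaments (SYCP1) and a central element (SYCE1, SYCE2, SYCE3, TEX12). At P3 all 7 of its genes were higher than at P0 (40.1% of all genes), 4 of them under all 5 scalings (20.6%). At E16.5 against E13.5, 3 were higher and 3 lower (45.5% and 34.6% of all genes). At P0 against E16.5, 2 were higher and 3 lower (27.6% and 33.4%).

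Syce2 (chr8:84872111-84888221, plus strand), a central element gene, had normalized counts of 10298, 9939 and 10069 (E13.5), 1511, 1470.1 and 1660.5 (E16.5), 2146, 2064 and 2112 (P0) and 10440.4, 9593 and 8202 (P3). The fetal drop left no overlap, and neither did the later rises. Syce2 fell by 2.71 on the log2 scale at E16.5 (limma, SE 0.08, adjusted p 2.78e-14) and rose by 2.15 at P3 against P0 (adjusted p 7.38e-13), in both cases under all 5 scalings.

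Syce3, its partner in the central element, behaved differently. Its counts were 36.9, 38.1 and 35.8 (E13.5), 53.4, 37.2 and 53.8 (E16.5), 147, 144 and 168 (P0) and 718, 669.8 and 592 (P3). The libraries of E13.5 and E16.5 overlapped, and those of P0 and P3 lay above both. The log2 fold change was 1.66 at P0 against E16.5 (limma, SE 0.20, adjusted p 1.66e-06) and 2.10 at P3 against P0 (adjusted p 5.2e-08), both under all 5 scalings.

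Tex12 reached 117 ± 18.8 TPM (E13.5), 353 ± 28.1 (E16.5), 368 ± 16.7 (P0) and 347 ± 37.4 (P3) (SD, n = 3). Its normalized counts were 2276, 1990.2 and 1655 (E13.5), 3887, 3933 and 4227 (E16.5), 2561, 2636 and 2588 (P0) and 5298, 4702 and 3937 (P3). The rise at E16.5 (log2 fold change 1.04, limma adjusted p 2.04e-07) held under all 5 scalings, whereas the fall at P0 and the rise at P3 vanished with equal totals (0.03 and -0.01).

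The mean level of Syce1 was 216 ± 8.18 TPM at E13.5 and 334 ± 9.85 at P3, and that of Sycp1 99.8 ± 8.38 and 182 ± 20.1 (SD, n = 3). Sycp3 rose from 48.2 ± 3.65 TPM at E13.5 to 135 ± 9.88 at E16.5 (log2 fold change of counts 0.92, limma adjusted p 1.83e-07). The exons of Sycp3 are overlapped over 52.2% of their length by Chpt1 on the opposite strand, so its reads cannot be assigned with certainty. Sycp2, its lateral element partner, stayed lower, between 5.43 ± 0.333 TPM at E13.5 and 16.4 ± 3.15 at P0, and the TPM ratio of Sycp3 to Sycp2 ranged from 8.88 ± 0.134 at E13.5 to 12.3 ± 2.01 at E16.5 (SD, n = 3).

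Meiotic cohesin swaps subunits of the mitotic ring for SMC1B, STAG3 and the kleisins REC8 and RAD21L. The 4 genes did not move as a unit. At E16.5 against E13.5, Rec8, Stag3 and Rad21l rose and Smc1b fell. At P3 against P0 Smc1b was higher and Rec8 and Stag3 were lower, each under all 5 scalings, and Rad21l was not called (limma adjusted p 0.912).

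Rad21l (ENSMUSG00000074704, chr2:151645404-151668533, minus strand) had 2, 3 and 2 reads in the E13.5 libraries, at the floor of 3 reads. Its normalized counts were 142, 192 and 184 (E16.5), 161, 187 and 166 (P0) and 203, 188 and 141 (P3). The later stages overlapped one another, and all lay far above E13.5. The ratio of E16.5 to E13.5 was 70.0, with a 95% exact counting interval of 33.8 to 175 that covers counting error only. No later consecutive change was called with the authors' factors, but with equal totals P0 was above E16.5 by 0.66 and P3 against P0 was -0.80 on the log2 scale (limma adjusted p 0.0275 and 0.00759).

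Smc1b (chr15:85064689-85131964, minus strand) had counts of 8749, 8263 and 7676 (E13.5), 3502, 3301 and 3334 (E16.5), 2605, 2639 and 2615 (P0) and 12526, 12500.5 and 11336 (P3). P3 was above every other stage, and P0 below every other. The log2 fold change was -1.28 at E16.5 (limma, SE 0.07, adjusted p 2.44e-11) and 2.21 at P3 against P0 (adjusted p 8.87e-14), both under all 5 scalings. At P0 against E16.5 it was -0.37 but 0.30 with equal totals.

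Stag3 (chr5:138280240-138312393, plus strand) ran the other way. Its counts were 12122, 10426 and 10132 (E13.5), 17629.6, 18403 and 15289 (E16.5), 10626, 11212 and 9943 (P0) and 8339, 8697 and 9827 (P3). In these counts E16.5 stood above the other stages, and P3 was lowest without overlap, but both rest on the authors' factors. In TPM, E16.5 and P0 were alike, at 266 ± 22.9 and 266 ± 17.1 (SD, n = 3). The P3 libraries, at 107 to 136 TPM, then overlapped those of E13.5, at 106 to 127. Stag3 rose by 0.65 at E16.5 (limma adjusted p 4.38e-06) and its change at P3 against P0 was -0.24 (adjusted p 0.0209), or -1.09 with equal totals. Rec8 shared the fall at P3 but had its highest mean at P0, at 6.88 ± 0.992, 17.9 ± 2.21, 35.9 ± 3.202 and 8.22 ± 0.356 TPM from E13.5 to P3 (SD, n = 3), and its log2 fold change at P3 against P0 was -1.21 (limma adjusted p 1.11e-07).

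Ratios within a library do not depend on scaling, and 3 of them set RNA of meiotic proteins against mitotic counterparts. They were chosen after the values were seen and are given without a test. The TPM ratio of Smc1b to Smc1a was 1.65 ± 0.0859 (E13.5), 0.939 ± 0.0944 (E16.5), 2.23 ± 0.216 (P0) and 6.88 ± 0.261 (P3) (SD, n = 3). Stag3 to the sum of Stag1 and Stag2 stood at 2.70 ± 0.0918, 7.06 ± 0.502, 4.93 ± 0.0887 and 2.198 ± 0.164 in the same order. Rec8 plus Rad21l remained well below Rad21, the mitotic kleisin, with ratios of 0.0663 ± 0.00596, 0.295 ± 0.0373, 0.230 ± 0.0100 and 0.132 ± 0.0127. Thus, by mean TPM ratio, RNA of the meiotic SMC and STAG genes exceeded that of their mitotic counterparts at nearly every stage. The exception was Smc1b at E16.5, where the libraries lay on both sides of 1, from 0.843 to 1.03. RNA of the meiotic kleisins stayed the smaller share throughout.

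**Figure D4:**
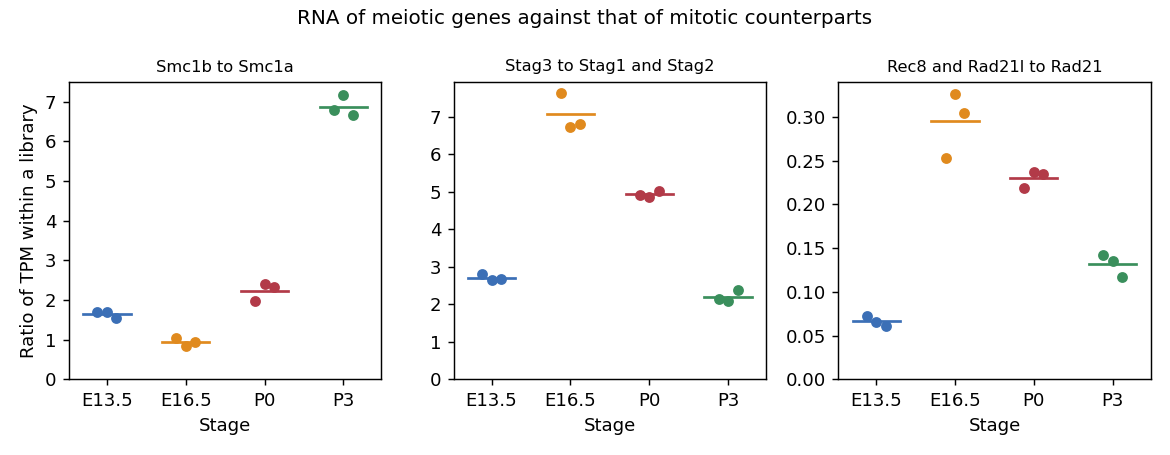
Ratio of TPM within each library of meiotic genes to mitotic counterparts (Smc1b to Smc1a, Stag3 to Stag1 plus Stag2, Rec8 plus Rad21l to Rad21), by stage. Points are libraries and bars the mean of 3, on linear axes that start at 0, and the mean ratio is highest at P3 for Smc1b and at E16.5 for Stag3 and the kleisins.

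HORMAD1 and HORMAD2 mark unsynapsed axes, and TRIP13 is the ATPase that strips them off. All 3 genes were lower at E16.5 than at E13.5 (34.6% of all genes) and higher at P3 than at P0 (40.1%). For Hormad1 both directions turned with equal totals.

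Hormad1 (ENSMUSG00000028109, chr3:95559677-95587671, plus strand) was among the most abundant at each stage, with 271, 260.5 and 219 TPM (E13.5), 298, 317 and 303 (E16.5), 407, 415 and 365 (P0) and 252, 259 and 239 (P3). Its normalized counts differed little, from 7784, 7367 and 6347 at E13.5 to 6038, 6053 and 5688 (E16.5), 5086, 4919 and 4286 (P0) and 5958, 5906 and 5216 (P3). The log2 fold changes of -0.27, -0.32 and 0.26 were small, passed the test (limma adjusted p 0.00985, 0.00476 and 0.0133) and became 0.24, 0.34 and -0.58 with equal totals. Some reads may belong elsewhere, since 22.9% of its 50-base stretches also occur in Gm15529 and Gm7167.

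Trip13 (chr13:73911347-73937784, minus strand) changed far more. Its counts were 11583, 10659.6 and 11131 (E13.5), 2656, 2732 and 2456 (E16.5), 1379, 1279.7 and 1258 (P0) and 10432, 10471 and 9947 (P3). E13.5 and P3 were high and the middle stages low, with no overlap. The log2 fold changes were -2.09, -1.001 and 2.98 over the consecutive steps (limma, SE 0.07 in each, adjusted p 6.54e-14, 1.87e-09 and 8e-15), all under all 5 scalings. The TPM ratio of Hormad1 to Trip13 was 1.29 ± 0.130 (E13.5), 4.56 ± 0.101 (E16.5), 7.32 ± 0.444 (P0) and 1.11 ± 0.0506 (P3) (SD, n = 3).

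Hormad2 had counts of 1859, 1777 and 1651 (E13.5), 323, 461 and 377 (E16.5), 311, 291 and 316 (P0) and 757, 835 and 734 (P3). It fell at E16.5 by 2.20 on the log2 scale (limma adjusted p 3.65e-11) and recovered in part, with P3 above P0 by 1.34 (adjusted p 3.03e-08) but below E13.5 by a log2 fold change of -1.18. These 3 calls held under all 5 scalings.

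The genes of break formation differed in course. SPO11 cuts the DNA, MEI1, MEI4 and ANKRD31 are needed for or time the cuts, and PRDM9 places them. At E16.5 against E13.5, Spo11, Mei1 and Ankrd31 were higher and Mei4 lower.

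Spo11 (chr2:172977700-172993576, plus strand) had counts of 321, 194 and 284 (E13.5), 878, 811 and 746 (E16.5), 1311, 1067 and 1171 (P0) and 173, 279.9 and 227 (P3). P0 and E16.5 were the high stages, and E13.5 and P3 overlapped. The log2 fold changes were 1.63 (limma, SE 0.18, adjusted p 3.72e-07), 0.54 (adjusted p 0.0172) and -2.40 (adjusted p 3.58e-09), each under all 5 scalings. Spo11 RNA therefore peaked at birth, at 43.3 ± 3.28 TPM (SD, n = 3), and was low again at P3.

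Mei1 (ENSMUSG00000068117, chr15:82069996-82126814, plus strand) had 4, 0 and 7 reads at E13.5. Later counts were 480.0, 364 and 304 (E16.5), 659, 619 and 608 (P0) and 2329.6, 2521 and 2724 (P3). No stage overlapped another. The ratio to E13.5 was 96.7 at E16.5 (95% exact counting interval 53.9 to 194) and 646 at P3 (361 to 1294). The P3 step from P0 was 2.00 (limma, SE 0.49, adjusted p 0.0015) on the log2 scale, under all 5 scalings.

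Ankrd31 had counts of 211, 182 and 224 (E13.5), 1301, 1650.5 and 1618 (E16.5), 509, 608 and 636 (P0) and 1815, 1879 and 1779 (P3). It rose at E16.5 (2.88, limma adjusted p 9.69e-13), fell at P0 (-1.38, adjusted p 3.28e-08) and rose again at P3 (1.65, adjusted p 1.67e-09) on the log2 scale, always under all 5 scalings. Mei4 instead fell at E16.5, from 7.40 ± 1.06 to 1.85 ± 0.241 TPM, and stood at 5.27 ± 0.804 at P3 (SD, n = 3). Prdm9 stayed low, with stage means of 1.258 ± 0.235, 2.22 ± 0.293, 3.65 ± 0.306 and 1.55 ± 0.265 TPM.

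Strand invasion genes included some of the most and some of the least abundant of the 35. DMC1 is the meiotic recombinase, PSMC3IP and MND1 form the complex that assists it, and MEIOB and SPATA22 bind single-stranded DNA together.

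Mnd1 (chr3:84087933-84155786, minus strand) had 186, 199 and 187 TPM (E13.5), 270.3, 241 and 299 (E16.5), 128, 119 and 132 (P0) and 131, 117 and 109 (P3). In normalized counts it fell at P0 from 2770.2, 2329 and 2842 to 807, 716 and 786, a log2 fold change of -1.78 (limma, SE 0.10, adjusted p 2.33e-10) that held under all 5 scalings. A processed copy, Mnd1-ps, shares 40.8% of its 50-base stretches, so its level is uncertain. The partner Psmc3ip differed in course, with counts of 2456, 2776 and 2836 (E13.5), 977, 954 and 879 (E16.5), 672, 655 and 679.6 (P0) and 3492, 3255 and 2755 (P3). Psmc3ip fell at E16.5 by 1.52 on the log2 scale (limma adjusted p 1.63e-10) and rose at P3 against P0 by 2.23 (adjusted p 2.05e-12), both under all 5 scalings. Mlx on the opposite strand overlaps 21.2% of its exons.

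Spata22 had normalized counts of 8.44, 7.62 and 11.6 (E13.5), 83.0, 180.4 and 126 (E16.5), 91.9, 125 and 105 (P0) and 125, 131 and 114 (P3). All later libraries lay above E13.5 and overlapped one another. The rise was 3.63 on the log2 scale (limma, SE 0.29, adjusted p 5.24e-09). Gm49340 on the same strand covers 80.5% of its exons, so its level is uncertain.

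Meiob, the partner of Spata22, had counts of 20.1, 28.3 and 21.03 (E13.5), 71.6, 86.5 and 77.6 (E16.5), 259.5, 280.4 and 289 (P0) and 84.3, 58.9 and 120.5 (P3). P0 stood alone above the rest. The rise at P0 against E16.5 (1.80, SE 0.26, limma adjusted p 1.5e-05) and the change at P3 against P0 (-1.70, adjusted p 1.68e-05) held under all 5 scalings. Meiob and Spo11 thus both had their highest mean at P0 and were lower at P3.

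Dmc1 averaged 12.9 ± 0.450 TPM (E13.5), 18.5 ± 1.43 (E16.5), 26.7 ± 2.36 (P0) and 54.2 ± 0.476 (P3) (SD, n = 3). Its counts were not called different at E16.5 against E13.5 or P0 against E16.5 (limma adjusted p 0.639 and 0.21), and they rose at P3 by 1.94 on the log2 scale (adjusted p 4.05e-11). With equal totals the earlier steps were 0.45 and 0.51.

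Crossover genes comprise Msh4 and Msh5, whose proteins clamp recombination intermediates, the endonuclease gene Mlh3, the helicase gene Hfm1, Rnf212, a ligase-like factor, and Tex11 on the X chromosome. At E16.5 against E13.5, 3 were higher and 2 lower (45.5% and 34.6% of all genes). At P3 against P0, 4 were higher and none lower (40.1% and 36.4%), but only Tex11 under all 5 scalings (20.6% higher).

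Rnf212 (chr5:108729290-108774982, minus strand) had counts of 34.8, 31.6 and 17.9 (E13.5), 1181, 908 and 896 (E16.5), 899.6, 850.4 and 1028 (P0) and 794, 914 and 687 (P3). The 3 later stages lay far above E13.5 and overlapped in part. The rise at E16.5 was 5.14 on the log2 scale (limma, SE 0.20, adjusted p 5.64e-13). No later consecutive step was called with the authors' factors, but P3 against P0 was -0.66 with median of ratios and -1.06 with equal totals (limma adjusted p 0.00676 and 0.000161), and P0 against E16.5 was 0.57 with equal totals (adjusted p 0.0195). Among the 6 genes short of 1 TPM at E13.5, Rnf212 reached the highest level, 80.9 ± 9.54 TPM at P0 (SD, n = 3).

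Tex11 (chrX:100838648-101059667, minus strand) had counts of 8592, 7886 and 7667 (E13.5), 5034, 5239.6 and 4344 (E16.5), 1803, 1805 and 1583 (P0) and 14529.7, 14196 and 13579.7 (P3). P3 was highest and P0 lowest, with no overlap between stages. It fell at P0 by 1.49 on the log2 scale (limma adjusted p 1.34e-10) and rose at P3 by 3.03 (SE 0.08, adjusted p 3.27e-14), under all 5 scalings. The other crossover genes stayed low, with all stage means of Msh4, Msh5, Mlh3 and Hfm1 between 2.02 TPM (Msh4 at E13.5) and 12.9 TPM (Hfm1 at E16.5). Msh4 rose at E16.5 by 1.12 and Msh5 by 0.49 (limma adjusted p 7.73e-07 and 0.00912), each under all 5 scalings.

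MAJIN, TERB1 and TERB2 anchor telomeres in the nuclear envelope. All 3 genes rose at P3 against P0 under all 5 scalings (20.6% of all genes), although their levels were modest. Terb2 had counts of 232, 213 and 299.7 (E13.5), 50.6, 81.8 and 47.5 (E16.5), 113, 87.5 and 68.1 (P0) and 617, 591 and 535 (P3), and Majin had 30.6, 45.7 and 30.5, 98.3, 89.3 and 57.0, 49.1, 49.4 and 30.9 and 345, 362 and 422 in the same order. For both, every P3 library was above every earlier one. The changes at P3 against P0 were 2.71 for Terb2 (limma, SE 0.23, adjusted p 1.47e-08), 3.12 for Majin (SE 0.27, adjusted p 2.21e-08) and 1.98 for Terb1 (SE 0.21, adjusted p 1.72e-07). At E16.5 they had parted, Terb1 and Terb2 lower than at E13.5 by log2 fold changes of -1.71 and -2.06 and Majin higher by 1.16 (limma adjusted p 8.6e-07, 3.69e-07 and 0.000989).

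MEIOC and the RNA helicase YTHDC2 work together to stop germ cells from returning to the mitotic program. Meioc had counts of 493, 411 and 352 (E13.5), 582, 497 and 514 (E16.5), 812, 907 and 726 (P0) and 829, 796 and 913 (P3). It rose in both earlier steps, by 0.35 and 0.61 on the log2 scale (limma adjusted p 0.0184 and 0.000552), under all 5 scalings. Ythdc2 had 794, 799 and 784, 414, 457 and 449, 347, 385 and 393 and 415, 513 and 521 in the same order. With the authors' factors Ythdc2 was highest at E13.5 without overlap. In TPM its mean was instead highest at P0, at 6.09 ± 0.597 against 5.39 ± 0.109 at E13.5 (SD, n = 3). It was lower at E16.5 than at E13.5 by a log2 fold change of -0.85 (limma adjusted p 2.68e-06), under all 5 scalings. At P0 against E16.5 its log2 fold change was -0.23, but 0.43 with equal totals (limma adjusted p 0.0056). The 2 partners therefore moved apart at E16.5 against E13.5, and neither had a consecutive change at P3 that held under all 5 scalings.

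Across the roles, 2 patterns recurred, described after the values were seen. For 11 genes all 6 libraries of E13.5 and P3 lay above all 6 of E16.5 and P0, beside 19.7% of all tested genes. For 7 of them this held with the authors' factors, median of ratios and equal totals alike (9.32% of all genes), namely Syce2, Smc1b, Hormad2, Trip13, Mei4, Psmc3ip and Tex11. The opposite pattern, E16.5 and P0 above the rest, was met by Rec8 and Spo11 (19.1% of all genes, also under all 3 scalings). This balance moved with the factors used. Median-of-ratios factors added Stag3, Prdm9, Msh4 and Rnf212 to the second pattern, and equal totals added Hormad1 as well, so that each pattern then held for 7 genes (9.44% and 28.5% of all genes). These stage pairs are crossed with the genotype tag, which pairs E13.5 with P0 and E16.5 with P3.

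Genes around the 35 give the setting. Of 18 tested regulators of meiotic entry, 13 were higher and none lower at P3 against P0, 9 under all 5 scalings, beside 40.1% higher, 36.4% lower and 20.6% higher under all 5 scalings among all genes. Stra8, the retinoic acid target that opens the meiotic program, had counts of 154, 106 and 115 (E13.5), 435, 441 and 433 (E16.5), 328, 267 and 276 (P0) and 4296, 3858 and 3656 (P3). Its rise at P3 was 3.76 on the log2 scale (limma, SE 0.14, adjusted p 4.42e-13) and held under all 5 scalings. Its partner Meiosin was not called there, at 0.21 (adjusted p 0.339), with 285, 303 and 317 counts at P0 and 379, 359 and 313 at P3. Nanos2, which holds male germ cells out of meiosis, went from 428, 596 and 630.0 at E16.5 to 6.79, 10.3 and 13.51 at P0 and 113, 123 and 88.1 at P3. Mga and Rxra had smaller changes at P3, 0.40 and 0.55 (adjusted p 7.01e-05 and 1.36e-05), which turned with equal totals.

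Of 31 further meiotic prophase genes, 24 were higher and 6 lower at P3 against P0 (12 and 5 under all 5 scalings), beside 40.1% and 36.4% of all genes (20.6% and 36.1%). At P0 against E16.5, 3 were higher and 19 lower, beside 27.6% and 33.4%. The centromere protector gene Sgo2a and the telomere motor adaptor gene Kash5 rose at P3 by 2.98 and 3.41 on the log2 scale (limma adjusted p 1.05e-12 and 6.32e-09). Kctd19 and Spo16 fell by 3.31 and 2.67 on that scale (adjusted p 7.9e-05 and 1.26e-09). Spo16 was low at E13.5, with counts of 10.6, 9.79 and 11.6, against 569, 374 and 445 at E16.5.

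Genes that dividing cells use for the same tasks also rose at P3. All 18 somatic recombination genes were higher than at P0, 13 under all 5 scalings (40.1% and 20.6% of all genes), with Rad54l up by 2.69 (limma adjusted p 5.09e-14) and Nbn and Rbbp8 by 0.18 and 0.33, the latter pair negative with median-of-ratios factors and with equal totals. Of 10 mitotic cohesin genes 7 were higher and none lower (40.1% and 36.4% of all genes), 3 under all 5 scalings (20.6%), led by Cdca5 (3.53) and Stag1 (1.52), with Smc1a and Pds5a at 0.58 and 0.57, both negative with equal totals. Ddx4, a germ cell reference, changed by -1.10 at P0 against E16.5 and by 1.09 at P3 against P0 (adjusted p 2.01e-09 and 9.68e-10), both under all 5 scalings.

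Some genes of later programs also had RNA. Of 13 pachytene genes 11 were higher and 1 lower at E16.5 against E13.5, all 12 under all 5 scalings (median log2 fold change 3.22). The shares of all genes were 45.5% and 34.6% (45.7% and 24.7% under all 5 scalings). At P3 against P0, 5 were higher and 8 lower, with 1 and 8 under all 5 scalings. There the shares of all genes were 40.1% and 36.4% (20.6% and 36.1% under all 5 scalings). Of 12 spermatid genes only 7 passed the filter on low counts and were tested. Of these 7, 6 were higher and none lower at P0 against E13.5 (median 3.63), all 6 under all 5 scalings. The shares of all genes were 45.7% and 40.5% (45.7% and 20.5% under all 5 scalings). At P3 against P0, 1 spermatid gene was higher and 2 lower, with 0 and 2 under all 5 scalings. Pgk2, Spag6, Adam3, Acr and Acrv1 had no read in any E13.5 library, where a count of 0 allows up to 3 reads. They passed the filter through later stages alone, so their direction against E13.5 was fixed in advance. The pachytene and spermatid counts against E13.5 are therefore partly set by the filter. At P3 the glycolysis gene Pgk2 was at 5.68, 3.02 and 5.88 TPM and Calr3 at 18.1, 16.1 and 17.1. Spag6 and Adam3 peaked at P0, at 17.8, 16.49 and 16.8 and 2.31, 3.80 and 3.89 TPM, and fell by 5.05 and 3.78 on the log2 scale at P3 (limma adjusted p 1.04e-08 and 4.94e-06). The acrosome genes Acr and Acrv1 did not exceed 1.27 and 1.91 TPM in any library, whereas Spaca1 stood at 22.5, 21.6 and 21.9 TPM at P3.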

How the data were processed

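RNA-seq libraries of male germ cells were made from total RNA by SMART-seq v4 amplification followed by a TruSeq kit, per the labels' protocols. The submitters' processing notes name bcl2fastq 2.20, cutadapt 1.18, HISAT2 2.1.0, featureCounts 1.5.2 and DESeq2 1.26.0, and the builds mm10 and GRCm38. The annotation release, strand setting and treatment of multi-mapping reads are not given in the sources used here. The authors deposited 1 table of normalized counts, a signal in which the reads of a gene are divided by the size factor of the library, for 55487 genes and 12 libraries. Dividing by the smallest value of a library gave whole numbers for 100% of genes within 0.001, so whole reads were recovered, 40946616 to 51533747 per library.

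Columns were assigned to a stage by their heads. GENCODE M21 (GRCm38) supplied symbols, coordinates and exon lengths for 55227 genes and gave TPM over the union of exons. The main test was limma 3.58.1 under R 4.3.3 on log2(normalized count + 1) (eBayes with trend, 8 residual degrees of freedom) on the 22384 genes with at least 10 in at least 3 libraries, at an adjusted p under 0.05. Alternatives were other scalings (TMM, median of ratios, poscounts, equal totals), a pseudocount of 0.1 or 10, dropping the filter, requiring a mean of 100, a log2 fold change of at least 1, fits of only 2 stages, left-out libraries, a replicate block on the number in the column heads (chosen after seeing the data), and edgeR 4.0.16 and DESeq2 1.42.0 on recovered reads. edgeR called 17851, 14370 and 17358 genes over the consecutive steps, and limma 17932, 13658 and 17122. The code was tested on simulated data.

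The members and lists were chosen with earlier results of these data known. Values per library are given for the 2 members of each role with the highest stage mean in TPM and for the member with the largest called change in each consecutive comparison. From each companion list the 2 highest and 2 lowest called changes at P3 against P0 are named, and Ddx4 and Stra8 are references. Meiosin, the partner of Stra8, is named outside that rule. Ratios, patterns, promoter windows and motifs were chosen after values were seen. The promoter of 1 member and the values of 1 gene that the rule would name are not reported here. Intervals and the floor of 3 reads cover counting error only. Python 3.11.15, numpy 2.4.6, pandas 2.3.3 and matplotlib 3.10.9 were used for the rest.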

Additional observations from a re-analysis of the deposited data

How the results depend on the processing

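The number of called genes stayed within 1.5 times of the reported one under every alternative but the 2-fold minimum, which by construction only removes calls. That minimum left 19 called in the step E13.5 to E16.5, 6 in the step E16.5 to P0, 19 in the step P0 to P3, 15 in the pair P3 and E16.5 and 18 in the pair P3 and E13.5. Leaving out each library in turn gave 34 to 34 genes that differed by stage. Called genes then ranged over 28 to 31, 19 to 25 and 27 to 29 for the 3 consecutive steps, 29 to 31 for the pair P0 and E13.5, 25 to 26 for the pair P3 and E16.5 and 27 to 30 for the pair P3 and E13.5. Genes that reached 1 TPM numbered 29 to 30 in the earliest stage and 35 to 35 in each later one. On recovered reads, edgeR called 30, 25 and 29 of the 35 over the consecutive steps, and DESeq2 the same numbers. With equal library totals 47 log2 fold changes turned sign. In the step E13.5 to E16.5 they became, later minus earlier, Syce1 (0.028), Hormad1 (0.24), Dmc1 (0.45), Mnd1 (0.44), Mlh3 (0.13) and Hfm1 (0.41). In the step E16.5 to P0 they became, later minus earlier, Sycp1 (0.31), Sycp2 (0.52), Sycp3 (0.50), Tex12 (0.034), Smc1b (0.30), Rad21l (0.66), Hormad1 (0.34), Hormad2 (0.34), Dmc1 (0.51), Psmc3ip (0.18), Msh4 (0.32), Msh5 (0.46), Rnf212 (0.57) and Ythdc2 (0.43). In the step P0 to P3 they became, later minus earlier, Sycp3 (-0.17), Tex12 (-0.011), Rad21l (-0.80), Hormad1 (-0.58), Mnd1 (-0.014), Msh5 (-0.065), Mlh3 (-0.20), Hfm1 (-0.31), Meioc (-0.78), Ythdc2 (-0.48), Mga (-0.44), Rxra (-0.29), Pds5a (-0.27), Smc1a (-0.26), Nbn (-0.66), Rbbp8 (-0.51) and Spaca1 (-0.081). In the pair P0 and E13.5 they became, later minus earlier, Stag3 (1.13), Hormad1 (0.58), Dmc1 (0.96), Mlh3 (0.12), Hfm1 (0.11), Terb1 (0.28) and Ythdc2 (0.088). In the pair P3 and E13.5 they became, later minus earlier, Syce2 (0.22), Stag3 (0.047) and Trip13 (0.22). Median-of-ratios factors turned 8, namely Hormad1 (-0.18), Meioc (-0.38), Ythdc2 (-0.081), Mga (-0.042), Nbn (-0.26) and Rbbp8 (-0.11) in the step P0 to P3 and Stag3 (0.44) and Dmc1 (0.27) in the pair P0 and E13.5. TMM factors turned 3, namely Hormad1 (-0.031) and Nbn (-0.11) in the step P0 to P3 and Stag3 (0.27) in the pair P0 and E13.5. The choice of factors alone differs there, and other causes were not tested. The column heads carry the numbers 1, 3 and 4 at each stage, which are not the replicate numbers of the titles. The deviations of same-numbered libraries from their stage means correlated at -0.0356 to 0.0423 over 18 pairs, and a library correlated best with its own number in 9 of 36 cases. No shared deviation over all tested genes was thus seen. Such correlations cannot show that the libraries are unpaired, and the labels do not say what the numbers mean. A fit with this number as a replicate block, chosen after seeing the data, called 30, 23 and 29 genes over the consecutive steps and 30, 25 and 30 for the pairs P0 and E13.5, P3 and E16.5 and P3 and E13.5. Depth limited Rad21l and Mei1 in the earliest stage, with at most 3 and 7 reads in a library.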
